A study of Rattus norvegicus with 6 samples.

Results

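Chemokines are small secreted proteins that guide leukocytes, and this account covers the genes for chemokine ligands and their receptors in rat liver after transarterial embolization. The genes were taken by symbol from the table of all genes: symbols beginning with Ccl, Cxcl, Ccr or Cxcr and a digit, plus Cx3cl1, Cx3cr1, Xcl1, Xcr1, Pf4 and Ppbp, with a count in any of the 6 libraries. Described here are 53 genes, 36 ligands and 17 receptors, of 21635 genes with a count in any library. Liver RNA of rats (Rattus norvegicus) was sequenced in 3 libraries named HCC, the abbreviation for hepatocellular carcinoma, which were untreated controls, and in 3 libraries named TAE, made after transarterial embolization, a catheter procedure that cuts off the arterial supply of a liver tumour. The labels give neither strain, age, tumour model nor time after embolization, and they do not say whether tumour or surrounding liver was taken. They call the replicates biosamples and do not state that each came from its own animal, so the p-values speak only to the spread among the deposited samples, which may be technical. The question the comparison addresses is which of these genes differed in liver after embolization.

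Chemokines are sorted by the spacing of their first cysteines into the CC, CXC, CX3C and XC classes, and they act through G protein-coupled receptors on leukocytes. A receptor often answers to several ligands, so that CCR2 ligands draw monocytes, CXCR2 ligands draw neutrophils, CXCR3 ligands draw activated T and NK cells, and the CCR7 and CXCR5 ligands organise lymphoid tissue. In liver, hepatocytes, Kupffer cells, stellate cells and endothelium all make chemokines after injury, and the ligand usually comes from other cells than its receptor. Many ligand genes are induced through NF-κB or interferon signalling.

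Total counts per library were 13448286 to 16604067. The TAE libraries differed more from each other than the HCC libraries did (pairwise chi-square of the counts divided by its degrees of freedom, 47.7 to 194 within TAE and 5.50 to 13.2 within HCC). Hepatocyte markers were abundant in all 6 libraries, with a sum over 8 genes of 23130 to 28640 FPKM (counts scaled to exonic length and to the library's total) in HCC. In TAE this sum was 13570, 10110 and 29780 FPKM in libraries 1, 2 and 3, so that TAE library 3 stood just above the HCC libraries and the others below them.

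Of the 53 genes, 42 had enough counts to be tested (29 ligands and 13 receptors), and 1 of these passed. Pf4, a chemokine of platelets and of some myeloid cells, rose in TAE at an adjusted p of 0.05 (edgeR's quasi-likelihood test with Benjamini-Hochberg adjustment over all 14499 genes tested). That is 2.38% of the 42 genes, beside 3.01% of all genes tested (2.70% for higher genes and 0.310% for lower genes). None of the 42 fell with edgeR, none had a negative change at an unadjusted p under 0.05 (beside 6.82% of all genes), and none fell with DESeq2 (beside 1.99%). At an unadjusted p under 0.05, 12 genes stood higher in TAE (28.6%, beside 15.9% of all genes). The FPKM of the groups did not overlap for 11 of the 42 genes, all higher in TAE, which is 26.2% beside 27.5% of all genes tested for either direction, 21.9% for TAE higher and 5.54% for TAE lower. On the TMM-scaled values that the test used (log2 CPM with a composition correction, looked at after the FPKM were seen) they did not overlap for 10 genes, 9 higher and Ccr9 lower, which is 23.8% beside 32.0% of all genes (18.6% higher and 13.4% lower). There Ccl6, Cxcl14 and Xcl1 overlapped, and Cxcl6, which overlapped on FPKM, did not. The log2 change of TAE against HCC had a median of 0.60 over the ligands and 0.32 over the receptors (-0.05 without TAE library 3), beside -0.03 over all genes tested. It was positive for 22 of 29 ligands and 8 of 13 receptors (71.4% of both together, beside 46.9% of all genes).

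The number of calls rested on single libraries. Without HCC library 1, 2 or 3, or without TAE library 1, edgeR called 0 of these genes. It called 0, 1, 0 and 1 of all genes (0.00675% without HCC library 2 and 0.00681% without TAE library 1, both single genes being lower). In the same order, 6 of 44, 11 of 43, 7 of 44 and 11 of 43 had an unadjusted p under 0.05. Among all genes tested, 2210 of 14812, 2243 of 14820, 1997 of 14824 and 2197 of 14675 did. Without TAE library 2 it called 13 of 43, of which 10 were higher and 3 lower, and 24.2% of all genes tested passed (14.6% higher and 9.56% lower). Without TAE library 3 it called 4 of 43, of which 3 were higher and 1 lower, beside 8.33% of all genes (4.82% higher and 3.51% lower). DESeq2 on all 6 libraries called 8 of the 42, all higher, beside 12.2% of all genes (10.2% higher).

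**Figure D1:**
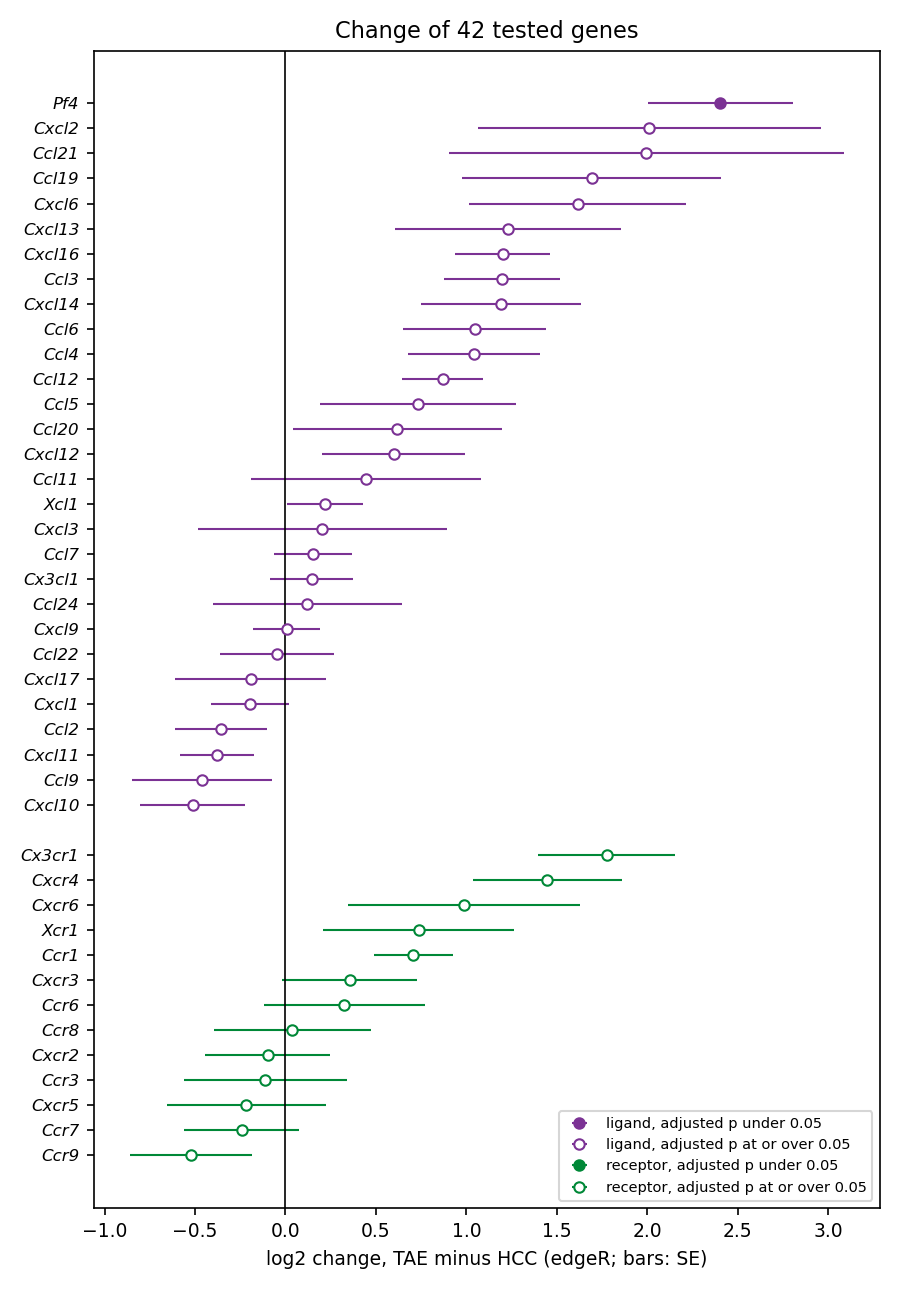
Fitted log2 change of TAE minus HCC (x axis, edgeR, bars are SE) for the 29 ligands and 13 receptors tested, each sorted by size. The changes run from 2.40 for Pf4 to -0.52 for Ccr9, and the filled point is the gene that passed, Pf4.

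The ligand RNA of this liver was carried by a few genes. Ccl2, Ccl6, Ccl9 and Cxcl10 together took 72.8%, 67.2% and 70.8% of the summed ligand FPKM in HCC libraries 1, 2 and 3 and 55.0%, 60.9% and 58.5% in TAE libraries 1, 2 and 3, so the groups did not overlap and the TAE libraries were lower. These 4 genes were singled out after their levels were seen. The ligand sum itself was 1307, 1435 and 1388 FPKM in HCC and 1433, 1515 and 1681 FPKM in TAE, where TAE library 1 fell within the HCC range. The receptor sum was 30.2, 43.0 and 35.0 FPKM in HCC and 59.9, 50.1 and 87.2 FPKM in TAE, with all TAE libraries above all HCC libraries.

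**Figure D2:**
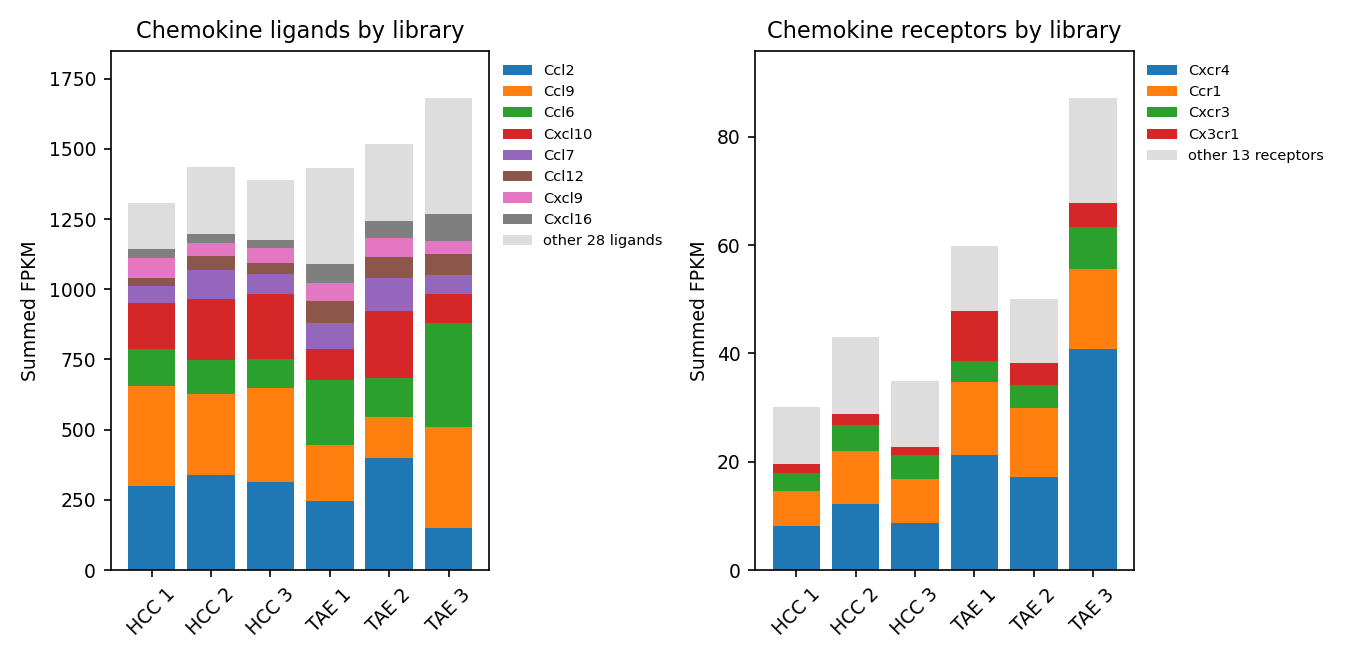
Summed FPKM (y axis) of chemokine ligands (left) and receptors (right) in each library (x axis), stacked by gene. The receptor bars of the TAE libraries (50.1 to 87.2 FPKM) all exceed those of HCC (30.2 to 43.0 FPKM), while the ligand bars of 1433 FPKM in TAE 1 and 1435 FPKM in HCC 2 are alike in height.

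Pf4, also called CXCL4, is a CXC chemokine best known from platelet granules that binds heparin and is also made by some monocytes and macrophages. It stood at 6.56, 12.2 and 7.56 FPKM in HCC libraries 1, 2 and 3 and at 64.8, 29.6 and 48.1 FPKM in TAE libraries 1, 2 and 3. Every TAE library lay above every HCC library, and TAE library 2 was the nearest to HCC. The mean was 8.76 ± 2.99 FPKM in HCC and 47.5 ± 17.6 FPKM in TAE (± SD, n = 3 libraries each). Pf4 rose 5.30-fold, or by 2.40 ± 0.40 on the log2 scale (± SE, edgeR adjusted p = 0.0394). The adjusted p ranged from 1.21e-06 to 0.223 over 15 alternatives, 10 of which called it. The call was lost without HCC library 1, 2 or 3 (0.186, 0.142 and 0.223) and without TAE library 1 (0.145), with log2 changes of 2.16 to 2.72 over the 6 fits that left out a library. Ppbp, the other platelet chemokine, had 1 count in each of TAE libraries 1 and 2 and 0 elsewhere, and a count of 0 allows up to 0.199 to 0.245 FPKM (3 counts of the library, counting error only). Among the other platelet and megakaryocyte markers, Gp9 stood at no more than 0.22, Gp1ba at no more than 0.08 and Gp6 at no more than 0.35 FPKM in any library. Itga2b, the platelet integrin chain, stood at 2.97 to 4.88 FPKM in HCC and 1.92 to 6.89 in TAE, and Treml1 at 0 to 0.16 in HCC and 0.14 to 2.07 in TAE. The sum of these 5 markers was 3.42 to 5.25 FPKM in HCC and 2.45 to 9.27 FPKM in TAE, lower than Pf4 alone in every library.

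Some markers of several leukocyte types were higher in TAE, as Pf4 was. Of 11 macrophage and monocyte markers tested, 6 rose (Ly86, Msr1, Csf1r, Itgam, Fcgr1a and Cd68) and none fell, beside 2.70% of all genes that rose. The Kupffer cell marker Clec4f and the resident macrophage markers Cd163 and Marco had negative log2 changes that did not pass (-0.38, -0.10 and -0.05). The summed level of the 11 was 418 to 487 FPKM in HCC and 643 to 1145 FPKM in TAE, and none of the 11 was at 0 in all libraries. Mast cell markers had a sum over 7 genes of 18.1 to 23.5 FPKM in HCC and 51.2, 46.1 and 94.0 FPKM in TAE, and of 5 tested Mcpt1 rose. Mcpt1 and Cpa3 made up most of that sum in TAE. Hdc, another of the 5, had a negative log2 change that did not pass (-0.77). Of 8 dendritic cell markers tested Itgax, which macrophages share, rose by 1.94 on the log2 scale, and the 6 that are not chemokine receptors summed to 18.4 to 23.3 FPKM in HCC and 34.8 to 40.2 FPKM in TAE. Siglech and Ccr7 had negative log2 changes that did not pass (-0.89 and -0.24), and Zbtb46 had one of 0.02. No marker of either list was at 0 in all libraries. In bulk tissue, more cells of a type and more RNA per cell cannot be told apart. The part of these cells in the chemokine results was not tested.

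Ccr1, a receptor of monocytes and neutrophils for several CC ligands, stood at 6.45, 9.75 and 8.12 FPKM in HCC and 13.5, 12.7 and 14.6 FPKM in TAE. All TAE libraries lay above all HCC libraries, but its change of 0.71 ± 0.22 (log2) missed the threshold with edgeR (adjusted p = 0.124). It passed in 3 of 15 alternatives, namely DESeq2 (0.0449), limma voom with sample weights (0.0186) and without TAE library 2 (0.0376), over a range of 0.0186 to 0.343.

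The inflammatory CC ligands Ccl3, Ccl4 and Ccl5 had higher means in TAE, and edgeR called none of them on all 6 libraries. Ccl3 stood at 7.81, 11.5 and 10.0 FPKM in HCC and 32.6, 15.8 and 20.9 FPKM in TAE, highest in TAE library 1 (log2 change 1.20 ± 0.32, edgeR adjusted p = 0.0897). Ccl3 passed with DESeq2 (adjusted p = 0.00888), with sample weights in limma voom (0.00165) and without TAE library 2 (0.00949), and its adjusted p was 0.0513 to 0.287 in the other 12 alternatives. Ccl4 stood at 14.2, 13.6 and 12.0 FPKM in HCC and 17.3, 25.0 and 39.9 FPKM in TAE, highest in TAE library 3 (log2 change 1.04 ± 0.36, adjusted p = 0.157). The groups overlapped for neither Ccl3 nor Ccl4. For Ccl5, which is made by T and NK cells, HCC stood at 26.9, 30.0 and 30.6 FPKM and TAE at 19.7, 37.2 and 86.5 FPKM. TAE library 1 was below all HCC libraries and TAE library 3 well above them. The log2 change of Ccl5 was 0.73 ± 0.54 (adjusted p = 0.426) and became -0.17 without TAE library 3. NK cell markers had a sum over 6 genes of 40.8 to 53.0 FPKM in HCC and 35.7, 62.2 and 97.2 FPKM in TAE, in the order of the Ccl5 values. At an unadjusted p under 0.05, 15.9% of all genes were higher and 6.82% lower, and DESeq2 called 12.2%. None of the 6 passed with edgeR (1 at an unadjusted p under 0.05, 1 with DESeq2), none was at 0 in all libraries, and their part was not tested.

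Ccl6 and Ccl9 are rodent CC chemokines of myeloid cells that act through CCR1, and they are neighbours on chromosome 10 (Ccl9 at 70783424 to 70788309 and Ccl6 at 70797124 to 70802782 in the table's coordinates). Their levels parted between the groups. Ccl6 stood at 133, 121 and 106 FPKM in HCC and 230, 139 and 370 FPKM in TAE, all TAE libraries above HCC on FPKM, with library 2 within the HCC range on the TMM scale (log2 change 1.05 ± 0.40, adjusted p = 0.182, and 0.51 without TAE library 3). Ccl9 stood at 357, 287 and 332 FPKM in HCC and 201, 145 and 359 FPKM in TAE, where libraries 1 and 2 were below HCC and library 3 was at its upper end. Its log2 change was -0.46 ± 0.39 (adjusted p = 0.481), and -1.02 without TAE library 3, where it was called lower (adjusted p = 0.0258, range over 15 alternatives 0.0115 to 0.731). The ratio of Ccl6 to Ccl9 FPKM within a library was 0.373, 0.421 and 0.321 in HCC and 1.14, 0.960 and 1.03 in TAE. This ratio did not overlap between the groups and varied little among the TAE libraries, although both genes did. It was computed after the values of both genes were seen and shows unequal change only.

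The CCR2 ligands Ccl2, Ccl7 and Ccl12 are the monocyte chemoattractant proteins. Ccr2 itself was not analysed here. Ccl2, the main attractant of monocytes, had with Ccl9 the highest FPKM of all ligands (mean over the 6 libraries 292 for Ccl2 and 280.2 for Ccl9), at 298, 340 and 315 FPKM in HCC and 246, 399 and 151 FPKM in TAE. TAE libraries 1 and 3 were below HCC and library 2 above it (log2 change -0.36 ± 0.26, adjusted p = 0.416). Ccl7 stood at 61.1 to 103 FPKM in HCC and 67.7 to 116 FPKM in TAE, so the groups overlapped (log2 change 0.15 ± 0.22, adjusted p = 0.682). For Ccl12, a rodent relative of Ccl2, HCC stood at 28.8, 52.0 and 40.3 FPKM and TAE at 77.6, 75.8 and 75.3 FPKM. The 3 TAE libraries differed by no more than 1.03 times in FPKM for Ccl12 (1.26 times on the TMM scale), and all lay above HCC on both. Its log2 change of 0.87 ± 0.22 did not pass with edgeR (adjusted p = 0.0828) and passed with DESeq2 (adjusted p = 0.0126, range over 15 alternatives 0.0108 to 0.275). Ccl2, Ccl7 and Ccl12 have similar sequences and lie within 1 cluster on chromosome 10 (69412017 to 69478462), so reads could be split between them by the counting.

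Cxcl9, Cxcl10 and Cxcl11, the CXCR3 ligands, are typical interferon-induced genes. Cxcl10 stood at 162, 216 and 229 FPKM in HCC and 111, 240 and 104 FPKM in TAE. On FPKM, TAE libraries 1 and 3 were below all HCC libraries and TAE library 2 above them, while on the TMM scale TAE library 2 lay within the HCC range. Its log2 change was -0.51 ± 0.29 (adjusted p = 0.319). Cxcl11 stood at 27.2, 34.1 and 32.5 FPKM in HCC and 23.7, 35.7 and 17.2 FPKM in TAE, with the same libraries below and above on FPKM and TAE library 2 again within the HCC range on the TMM scale (log2 change -0.38 ± 0.21, adjusted p = 0.303). Without TAE library 2, Ccl2, Cxcl10 and Cxcl11 were the 3 genes called lower (log2 changes -0.68, -0.89 and -0.61, adjusted p = 0.0345, 0.0198 and 0.0348). Over 15 alternatives the adjusted p of Cxcl10 ranged from 0.00375 to 0.619 and that of Ccl2 from 0.013 to 0.741. Cxcl9 differed from its neighbours, at 69.8, 45.7 and 51.4 FPKM in HCC and 64.7, 68.5 and 43.2 FPKM in TAE (log2 change 0.01 ± 0.18, adjusted p = 0.981). The receptor Cxcr3 stood at 3.26 to 4.87 FPKM in HCC and at 3.93, 4.35 and 7.75 FPKM in TAE, so that only TAE library 3 was above the HCC range (log2 change 0.35 ± 0.38, adjusted p = 0.574, and -0.13 without that library). Ifng, the cytokine that induces these ligands, stood at 4.50 to 7.58 FPKM in HCC and 4.25 to 8.04 FPKM in TAE, highest in TAE library 2 (log2 change 0.03).

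The CXCR2 ligands, which attract neutrophils, lie together on chromosome 14 with Pf4 and Ppbp (18731378 to 18862407) and did not move as 1 group. Cxcl2 stood at 0.78, 2.43 and 1.52 FPKM in HCC and 16.5, 2.81 and 1.12 FPKM in TAE. TAE library 1 alone was high, and the log2 change of 2.01 ± 0.95 (adjusted p = 0.255) was 0.24 without it. Cxcl6 stood at 1.24, 4.35 and 2.70 FPKM in HCC and 16.5, 6.24 and 4.12 FPKM in TAE, again highest in TAE library 1 (log2 change 1.61 ± 0.60, edgeR adjusted p = 0.176, DESeq2 adjusted p = 0.0491), and its log2 change was 0.85 without that library. The adjusted p of Cxcl6 ranged from 0.00552 to 0.445 over 15 alternatives. Cxcl3 stood at 3.42, 7.56 and 4.29 FPKM in HCC and 11.3, 6.67 and 1.03 FPKM in TAE, with TAE library 1 above HCC and TAE library 3 below it (log2 change 0.20 ± 0.69). Cxcl1, the most abundant of them, stood at 25.9, 25.9 and 38.0 FPKM in HCC and 23.2, 30.1 and 27.8 FPKM in TAE, with no library set apart (log2 change -0.19 ± 0.22, adjusted p = 0.592). Cxcl1, Cxcl2 and Cxcl3 have similar sequences, and their reads could have been split by the counting. The receptor Cxcr2 was at 1.53 to 2.20 FPKM in HCC and 2.40, 1.97 and 1.00 FPKM in TAE (log2 change -0.10 ± 0.35, adjusted p = 0.876), and Cxcr1 had 3 counts in TAE library 3 and 0 in the other libraries, where 0 allows up to 0.123 to 0.152 FPKM. Of the other 8 neutrophil markers the sum was 27.2, 57.4 and 50.2 FPKM in HCC and 132, 57.4 and 143 FPKM in TAE libraries 1, 2 and 3. S100a8 (45, 16 and 58 FPKM in TAE) and S100a9 (61, 21 and 67 FPKM) made up most of that sum. Mmp8 was also highest in TAE library 3 (1.24, 0.40 and 2.05 FPKM in TAE). Csf3r stood at 10.8 to 14.2 FPKM in HCC and 22.2, 19.6 and 13.6 FPKM in TAE, lowest of TAE in library 3. None of the 8 was at 0 in all libraries, although Elane was at 0 in HCC and Mpo at no more than 0.33 FPKM anywhere. Of the 5 neutrophil markers tested, Cxcr2 included, edgeR called 0 (4 at an unadjusted p under 0.05, 1 with DESeq2). Beside the marker counts in this paragraph, edgeR called 2.70% of all genes higher and DESeq2 10.2%. At an unadjusted p under 0.05, 15.9% of all genes were higher with edgeR. The fibroblast and stellate cell markers were also highest in TAE library 1, with a sum over 8 genes of 448 to 712 FPKM in HCC and 3018, 1140 and 1464 FPKM in TAE, of which Lum rose with edgeR, while DESeq2 called all 8 higher, and all 8 were under 0.05 before adjustment with edgeR. Cholangiocyte markers had a sum over 6 genes of 17.2 to 58.8 FPKM in HCC and 251, 110 and 195 FPKM in TAE, of which Cftr rose. Spp1, which macrophages also express, made up most of that sum, and without it the other 5 genes summed to 14.0 to 18.1 FPKM in HCC and 42.6, 22.3 and 18.6 FPKM in TAE, with Krt7 at a log2 change of -0.22. The part of these cell types in the Cxcl2 and Cxcl6 values was not tested.

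Cxcl1 and Cxcl2 as well as Cxcl10 and Cxcl11 are given by the 250 bases before their transcription starts, because these genes share letters of an NF-κB site. Cxcl1 and Cxcl2 differed in their order of libraries, while Cxcl10 and Cxcl11 were both highest in TAE library 2 on FPKM. The sequences are from RefSeq (GRCr8), which had entries for 40 of the 53 genes, and are written 5′ to 3′ on the gene's strand, ending at the base before the start. Capitals mark matches on either strand to a form of the NF-κB site, GGG and TTCC with any 3 bases between them, and to a form of the interferon response element ISRE, GAAA and GAAA with any 2 bases between them, and the overlapping matches on both strands of a near-palindrome run together.
Cxcl1 (chr14:17479322-17479571, minus strand): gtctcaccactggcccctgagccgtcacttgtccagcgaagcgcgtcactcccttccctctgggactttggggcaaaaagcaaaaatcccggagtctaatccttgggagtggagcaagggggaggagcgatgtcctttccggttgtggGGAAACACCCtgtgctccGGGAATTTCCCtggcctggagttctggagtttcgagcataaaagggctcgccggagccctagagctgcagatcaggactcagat
Cxcl2 (chr14:17467256-17467505, minus strand): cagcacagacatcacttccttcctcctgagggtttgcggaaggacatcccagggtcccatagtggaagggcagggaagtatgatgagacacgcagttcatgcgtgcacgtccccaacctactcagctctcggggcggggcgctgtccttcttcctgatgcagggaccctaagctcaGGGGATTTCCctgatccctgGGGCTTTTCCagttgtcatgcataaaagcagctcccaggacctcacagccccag
Cxcl10 (chr14:15988816-15989065, plus strand): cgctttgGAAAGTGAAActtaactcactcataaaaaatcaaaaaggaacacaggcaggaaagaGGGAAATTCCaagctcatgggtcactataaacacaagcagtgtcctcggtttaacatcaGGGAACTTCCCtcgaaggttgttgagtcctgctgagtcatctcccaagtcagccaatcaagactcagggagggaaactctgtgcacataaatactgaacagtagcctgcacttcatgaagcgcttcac
Cxcl11 (chr14:15973478-15973727, plus strand): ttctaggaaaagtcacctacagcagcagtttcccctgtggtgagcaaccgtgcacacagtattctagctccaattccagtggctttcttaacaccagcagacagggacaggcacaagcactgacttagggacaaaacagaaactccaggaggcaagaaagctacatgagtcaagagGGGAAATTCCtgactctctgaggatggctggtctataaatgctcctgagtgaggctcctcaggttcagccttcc
The first bases of the κB matches lay 102, 84 and 83 bases before the start in Cxcl1, 74 and 54 in Cxcl2, 187, 128 and 127 in Cxcl10, and 74 in Cxcl11. Cxcl10 alone of these 4 had the ISRE letters, 243 bases before the start. The κB letters were in 9 of 29 ligand promoters (31%: Ccl6, Ccl7, Ccl9, Ccl20, Cxcl1, Cxcl2, Cxcl6, Cxcl10 and Cxcl11), in 1 of 11 receptor promoters (9.09%, Ccr3) and in 4.53% of 27457 promoters of this length. The ISRE letters were in 2 of 29 ligand promoters (6.9%, Cxcl10 and Ccl19), in 0 of 11 receptor promoters and in 3.29% of all. Of the 9 ligands with κB letters, Ccl20, Cxcl2 and Cxcl6 had their highest FPKM in TAE library 1, Ccl7, Cxcl10 and Cxcl11 in TAE library 2, Ccl6 and Ccl9 in TAE library 3 and Cxcl1 in HCC library 3, so genes with these letters did not share 1 order of libraries. A match is a description of these letters only.

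**Figure D3:**
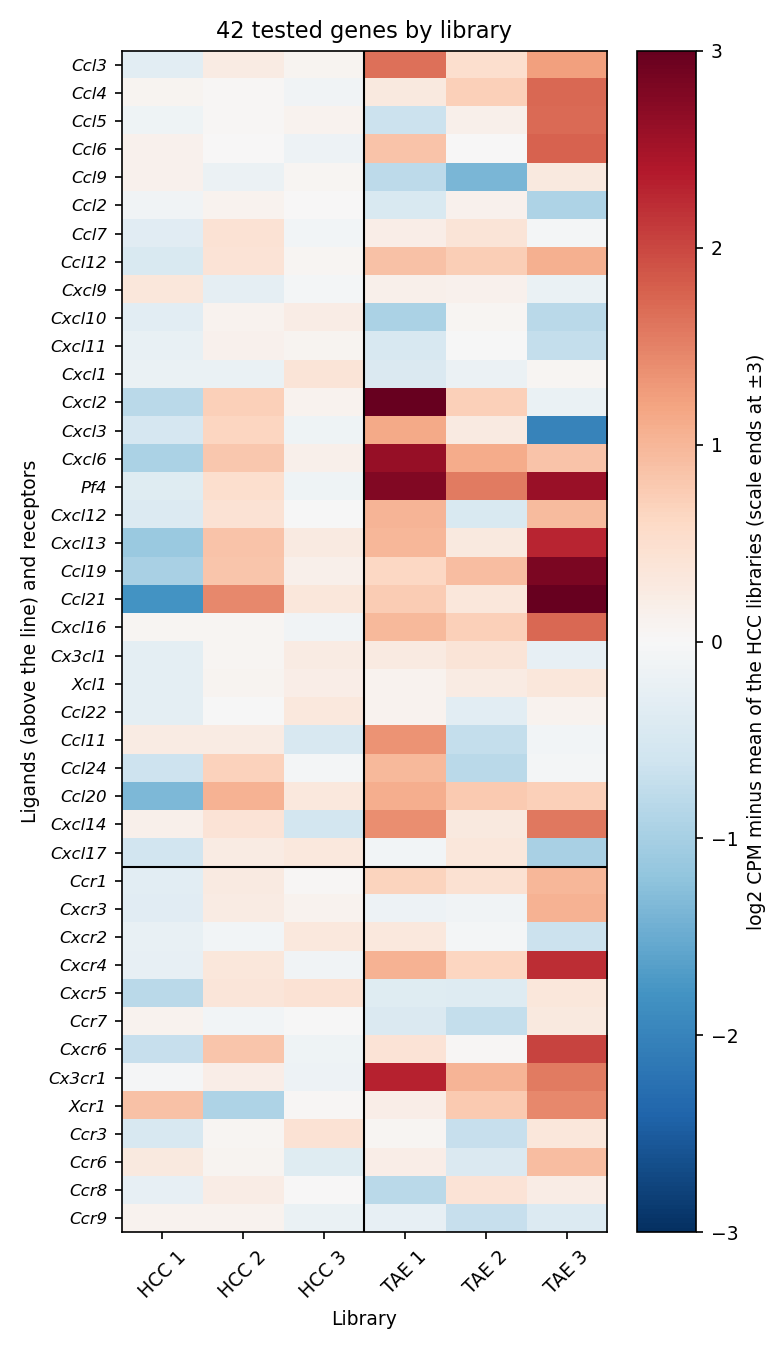
Colour shows log2 CPM (counts scaled to the TMM-corrected library size) minus the mean of the HCC libraries for each tested gene (rows, ligands above and receptors below the line, ligands ordered by their receptor) in each library (columns). The scale ends at 3, which Cxcl2 in TAE 1 (3.32) and Ccl21 in TAE 3 (3.78) exceed, and different genes are high in TAE 1 and TAE 3.

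The chemokines of lymphoid tissue were highest in TAE library 3. Ccl19 and Ccl21, the CCR7 ligands that guide T cells and dendritic cells, lie side by side on chromosome 5. Ccl21 stood at 0.83, 9.07 and 4.06 FPKM in HCC and 5.92, 4.76 and 41.9 FPKM in TAE, and Ccl19 at 1.19, 4.49 and 2.69 FPKM in HCC and 4.15, 5.54 and 16.8 FPKM in TAE. Outside TAE library 3 both genes lay near the HCC range, and HCC library 1 was the lowest of all. The log2 changes were 2.00 ± 1.09 for Ccl21 and 1.69 ± 0.72 for Ccl19 (adjusted p = 0.309 and 0.218), and became 0.08 and 0.67 without TAE library 3. Cxcl13, the CXCR5 ligand that guides B cells into follicles, stood at 3.49, 14.1 and 9.01 FPKM in HCC and 16.5, 10.8 and 34.1 FPKM in TAE (log2 change 1.23 ± 0.62, adjusted p = 0.283, and 0.51 without TAE library 3). Their receptors had negative log2 changes that did not pass, although TAE library 3 was the highest TAE library for both. Ccr7 stood at 2.82 to 3.22 FPKM in HCC and 2.31, 2.03 and 3.29 FPKM in TAE (log2 change -0.24 ± 0.32, adjusted p = 0.652), and Cxcr5 at 0.65, 1.54 and 1.61 FPKM in HCC and 0.97, 1.01 and 1.37 FPKM in TAE (log2 change -0.22 ± 0.44, adjusted p = 0.778). B and plasma cell markers had a sum over 7 genes of 14.2 to 21.5 FPKM in HCC and 39.5, 37.0 and 145 FPKM in TAE libraries 1, 2 and 3. T cell markers had a sum over 9 genes of 142 to 209 FPKM in HCC and 287, 285 and 455 FPKM in TAE. Cd4 and Cd8a, which other leukocytes can express too, carried most of that difference: the other 7 genes summed to 60.9, 94.0 and 82.3 FPKM in HCC and 75.0, 98.4 and 156 FPKM in TAE, with overlapping groups, and Cd3e had a log2 change of 0.10. At an unadjusted p under 0.05, 15.9% of all genes were higher and 6.82% lower, and DESeq2 called 12.2%. With edgeR 0 of 6 B and plasma cell and 0 of 9 T cell markers passed (3 and 3 at an unadjusted p under 0.05, 3 and 2 with DESeq2), and none was at 0 in all libraries. Their part in these values was not tested.

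Cxcl12 is the ligand of Cxcr4 and is made by stromal and endothelial cells. It stood at 15.4, 27.5 and 19.6 FPKM in HCC and 43.8, 16.9 and 35.4 FPKM in TAE, where library 2 was within the HCC range and the others above it (log2 change 0.60 ± 0.40, adjusted p = 0.380). Cxcr4, which is carried by most leukocytes, stood at 8.20, 12.2 and 8.78 FPKM in HCC and 21.2, 17.2 and 40.9 FPKM in TAE. All TAE libraries were above HCC, library 3 most of all, and the log2 change was 1.45 ± 0.41 (edgeR adjusted p = 0.104, DESeq2 adjusted p = 0.00944, range over 15 alternatives 0.00615 to 0.326).

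Cxcl16 and Cx3cl1 are made as membrane-bound proteins and meet the receptors Cxcr6 and Cx3cr1. Cxcl16, which also serves as a scavenger receptor of macrophages, stood at 33.5, 33.0 and 29.3 FPKM in HCC and 66.2, 59.8 and 96.3 FPKM in TAE, with every TAE library above HCC. Its log2 change of 1.20 ± 0.26 just missed the threshold (edgeR adjusted p = 0.0557), and 8 of 15 alternatives called it (adjusted p from 0.000831 to 0.239). Cxcr6, a receptor of liver T and NK cells, stood at 1.25, 3.80 and 1.88 FPKM in HCC and 2.99, 2.46 and 8.04 FPKM in TAE, high in library 3 alone (log2 change 0.99 ± 0.64, adjusted p = 0.375, and 0.12 without that library). For Cx3cr1, the receptor of patrolling monocytes and some macrophages, HCC stood at 1.63, 1.91 and 1.44 FPKM and TAE at 9.17, 3.96 and 4.59 FPKM. TAE library 1 was the highest and all TAE libraries lay above HCC. Its log2 change of 1.78 ± 0.38 was the largest of the receptors and also just missed the threshold (edgeR adjusted p = 0.0533), with 8 of 15 alternatives past it (0.000539 to 0.239). Cx3cl1, its ligand, stood at 4.03 to 5.68 FPKM in HCC and 6.35, 7.33 and 3.72 FPKM in TAE, so the groups overlapped (log2 change 0.14 ± 0.23, adjusted p = 0.714).

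**Figure D4:**
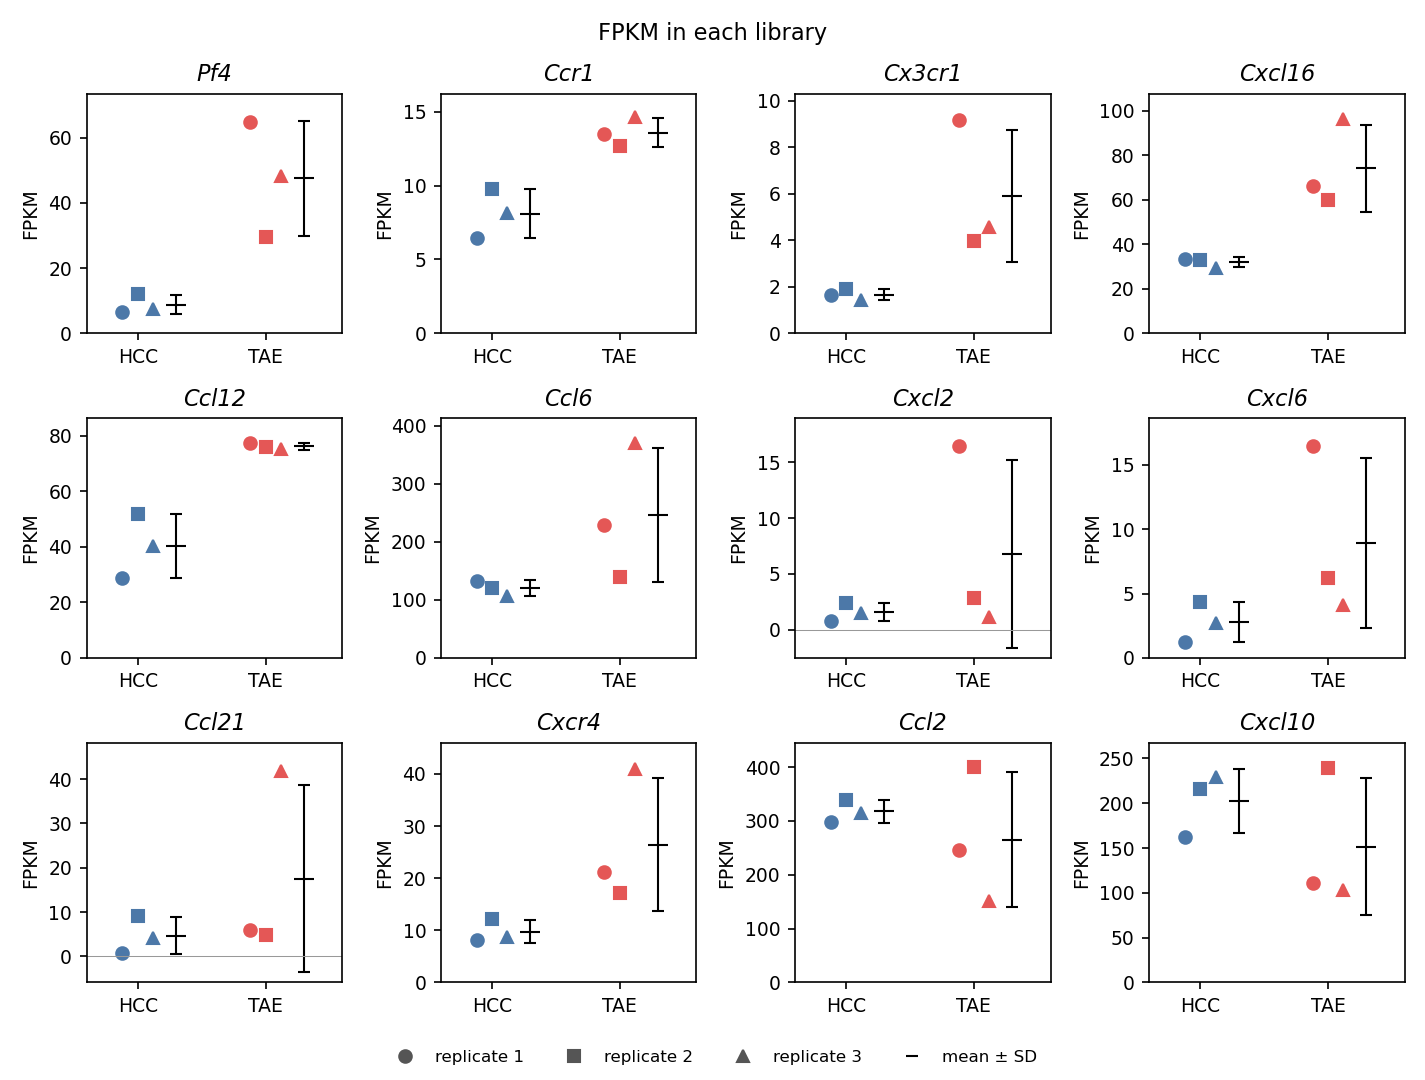
FPKM (y axis, scale differs by panel) of 12 genes in each library of HCC and TAE; symbols mark the replicate and black bars the mean ± SD of 3 libraries, which can reach below 0 as a bar only. Pf4, Ccr1, Cx3cr1, Cxcl16, Ccl12, Ccl6 and Cxcr4 have FPKM that do not overlap between groups, Cxcl2 and Cxcl6 are highest in TAE replicate 1, Ccl21 in TAE replicate 3, and Ccl2 and Cxcl10 in TAE replicate 2.

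Xcl1, which activated T and NK cells release, stood at 11.8, 15.3 and 16.1 FPKM in HCC and 16.3, 19.6 and 16.3 FPKM in TAE, just without overlap on FPKM and with overlap on the TMM scale (log2 change 0.22 ± 0.21, adjusted p = 0.532). Its receptor Xcr1, a marker of cross-presenting dendritic cells, stood at 0.23 to 0.89 FPKM in HCC and 0.57 to 1.18 FPKM in TAE. Cxcl14, which also overlapped on the TMM scale, stood at 0.66 to 1.38 FPKM in HCC and 1.46 to 3.03 FPKM in TAE (log2 change 1.19 ± 0.44, adjusted p = 0.177). Ccl20, the CCR6 ligand, stood at 0.44 to 3.02 FPKM in HCC and 2.14 to 3.32 FPKM in TAE, and Ccl24, an attractant of eosinophils, at 2.06 to 5.18 and 2.06 to 6.77 FPKM. Cxcl17 stood at 2.98 to 5.52 and 1.97 to 6.52 FPKM in the same order. Ccl11 and Ccl22 were at 0.54 to 2.51 FPKM in all libraries and Ccr3, Ccr6, Ccr8 and Ccr9 at 0.19 to 1.69 FPKM. The groups overlapped on FPKM for all of them, while Ccr9 was lower in TAE without overlap on the TMM scale. The 11 genes that were not tested had few counts: the ligands Ccl1, Ccl17, Ccl25, Ccl26, Ccl27, Ccl28 and Ppbp and the receptors Ccr1l1, Ccr4, Ccr10 and Cxcr1. Ccl17 reached 4.48 FPKM in TAE library 3, and the other 10 stayed at or below 1.90 FPKM in every library. Ccl25 had 1 count in HCC library 2 and 0 elsewhere, which allows up to 0.136 to 0.159 FPKM in the libraries at 0.

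On FPKM, the highest TAE library exceeded the lowest by a larger factor than in HCC for 30 of the 42 genes (21 ligands and 9 receptors). TAE library 2 was the lowest of its group for 20 genes, TAE library 3 for 13 and TAE library 1 for 9. Of the receptors, 9 of 13 had their highest TAE value in library 3, and the median receptor stood at 0.20, -0.06 and 0.93 (log2 CPM relative to the HCC mean) in TAE libraries 1, 2 and 3. The median ligand stood at 0.76, 0.29 and 0.33. Within HCC, library 1 was the lowest for 29 of the 42 genes and library 2 the highest for 22. The shares of all genes beside the counts in this paragraph were not computed. Over all genes too, the TAE libraries differed more from each other than the HCC libraries did, so these counts are not particular to chemokine genes by themselves.

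Other parts of the chemokine system were taken from lists. The atypical receptors, which bind chemokines without G protein signalling, and the related Ccrl2 gave no call among 3 tested (0 with edgeR, 0 at an unadjusted p under 0.05, 0 with DESeq2): Ackr3, a scavenger of Cxcl12, stood at 3.98 to 4.34 FPKM in HCC and 2.31 to 4.54 FPKM in TAE, Ackr4 at 1.96 to 3.04 and 1.41 to 2.24 FPKM, and Ccrl2 at 1.11 to 1.73 and 1.78 to 2.80 FPKM. Of 35 genes that carry, limit or end the receptor signal inside leukocytes, 11 rose and none fell, beside 2.70% of all genes higher. The 11 were Arrb2, Fermt3, Fgr, Gng2, Lyn, Pik3cd, Pik3cg, Pik3r5, Prex1, Vav1 and Was. The median log2 change of the 35 genes was 0.87. Pik3cg, the phosphoinositide 3-kinase subunit that G protein-coupled receptors activate, had 2.72 ± 0.29 FPKM in HCC and 6.75 ± 1.22 FPKM in TAE and rose by 1.27 ± 0.20 on the log2 scale (edgeR adjusted p = 0.0388). Arrb2, which ends receptor signalling, had 23.6 ± 3.08 FPKM in HCC and 45.3 ± 4.09 FPKM in TAE and rose by 0.90 ± 0.18 on the log2 scale (edgeR adjusted p = 0.0488). Rap1b, Gnai2 and Gnb1, the most abundant of the list, had log2 changes of 0.33, 0.43 and -0.08 that did not pass (adjusted p = 0.189, 0.105 and 0.742). Most of the genes that rose are also expressed in macrophages, whose markers rose too, and their part was not tested. Over all genes, these lists included, edgeR made no more than 1 call without HCC library 1, 2 or 3 or without TAE library 1.

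Of 17 tested genes for inducers of chemokines, transcription factors and their regulators, edgeR called 0 (7 at an unadjusted p under 0.05, 3 with DESeq2). Beside these, 15.9% of all genes were higher and 6.82% lower at an unadjusted p under 0.05, and DESeq2 called 12.2%. Il1b, a main inducer of CXCR2 ligands, stood at 38.6 to 48.8 FPKM in HCC and 39.8 to 62.7 FPKM in TAE, highest in TAE library 2 (log2 change 0.07 ± 0.16), and Il6 at 3.05 to 8.82 and 2.77 to 6.64 FPKM. Il1a stood at 8.51 to 10.2 FPKM in HCC and 5.19 to 7.67 FPKM in TAE, lower without overlap on FPKM (log2 change -0.54 ± 0.25, edgeR adjusted p = 0.246). Of the 17 genes, 14 had positive and 3 negative log2 changes, beside 46.9% positive of all genes. Tnf was at or below 0.09 FPKM in every library and was not tested. Irf1, an interferon-induced factor, stood at 97.5 to 102 FPKM in HCC and 116 to 156 FPKM in TAE (log2 change 0.35 ± 0.12, adjusted p = 0.142). Of 9 tested genes for other attractants and their receptors, 4 receptors rose, beside 2.70% of all genes, and 3 genes had negative changes that did not pass (Mif, S1pr1 and Rarres2). Those that rose were C3ar1 and C5ar1 for the complement fragments C3a and C5a, Cmklr1 for chemerin and Gpr183 for oxysterols. C5ar1 stood at 9.14, 15.3 and 10.5 FPKM in HCC and 46.7, 31.2 and 48.7 FPKM in TAE (log2 change 1.84 ± 0.30, edgeR adjusted p = 0.0388), and C3ar1 had a log2 change of 2.06 ± 0.32 (adjusted p = 0.0388). Rarres2, which encodes chemerin, stood at 274 to 363 FPKM in HCC and 219, 141 and 365 FPKM in TAE (log2 change -0.44 ± 0.40, adjusted p = 0.509).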

How the data were processed

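RNA of rat liver was measured by RNA sequencing in 6 libraries, grouped by their titles. Per the labels' protocols, libraries were poly(A)-selected and strand-specific (dUTP). The authors deposited 1 table with raw counts and FPKM values per Ensembl gene, and the FPKM equals the count scaled to exonic size and library total (recomputed, 100% of values came within 0.006). Build mRatBN7.2 is named in the submitters' processing notes, but gene ends on chromosome 1 reach 282724300, beyond that build, so the build of the printed coordinates is not settled. Aligner, counter, strand setting and handling of multi-mapping reads: not given in the sources used here.

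The deposited counts of all genes were tested with edgeR 4.0.16 (R 4.3.3, TMM, filterByExpr, quasi-likelihood, two-sided, no block, Benjamini-Hochberg over 14499 genes, threshold 0.05; biological coefficient of variation 0.24). SE is the absolute log2 change divided by the square root of F. With 3 against 3, an exact permutation test cannot go below 0.1. Alternatives used DESeq2 1.42.0 and limma 3.58.1. The script was tested on simulated counts. No 2 replicates agreed within sampling noise, and a count of 0 allows up to 3 counts. Genes named in full were those that passed, the 10 ligands and 8 receptors with the highest mean FPKM, and the 5 largest log2 changes. Other members were given by values or ranges. From the other lists, genes that passed and up to 3 abundant ones were named. Ifng, Il1a, Il1b, Il6, Tnf, Irf1, Ackr3, Ackr4, Ccrl2, Rarres2 and single platelet and neutrophil markers were chosen after their values were seen. The members, lists and motifs were chosen with earlier results of these data known. Besides the 53 genes, 1 gene that the symbol rule takes is not reported here; it stays in the fits over all genes and is in no count, median or sum of chemokine genes.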

Additional observations from a re-analysis of the deposited data

How the results depend on the processing

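Under the alternatives the number of chemokine and receptor genes called was 1 in the reported test, 8 with DESeq2, 5 with library totals only, 3 without a filter, 3 with limma at either pseudocount (1 or 0.1) and 16 with limma voom and sample weights (12 higher and 4 lower), and 0 to 13 with a library left out. Over all genes these counts were 1763, 1036, 829, 701 (pseudocount 1), 709 (pseudocount 0.1) and 5975 (3152 higher and 2823 lower), and 0 to 3569, against 437 (392 higher and 45 lower). With the replicate number as a replicate block, edgeR called 0 of these genes and 0 of all genes (10 and 2984 at an unadjusted p under 0.05), with an adjusted p of 0.135 for Pf4. Same-numbered HCC and TAE libraries had correlations of 0.1, -0.209 and 0.034 (deviations from group means), and not every library correlated best with its own number. With 3 libraries per group, whose deviations depend on each other, these values cannot settle whether the numbers mark pairs. Median-of-ratios scaling and a stricter filter left both counts within 1.5 times. The ligand median of 0.60 was 0.30 with limma on log2(FPKM + 1) and 0.28 to 0.85 with a library left out, and the receptor median of 0.32 was -0.046 to 0.369, negative without TAE library 3. No scaling moved the median of all genes by over 0.1.

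Of the 42 genes, 27 kept 1 direction in all 15 alternatives (21 higher and 6 lower). Among genes named in full, direction turned with sample weights for Ccl5 (-0.44), Cxcr2 (0.14) and Cxcr3 (-0.14), and with a library left out the log2 change ran from -0.17 to 1.13 for Ccl5, -0.014 to 0.409 for Ccl7, -0.302 to 0.042 for Cxcl1, -0.10 to 0.19 for Cxcl9, -0.35 to 0.15 for Cxcr2, -0.13 to 0.56 for Cxcr3 and -0.541 to 0.022 for Cxcr5. Fewer samples were tested in those fits; other causes were not tested. The overlap on the TMM scale (10 against 11 genes without overlap) and marker sums without their most abundant genes were chosen after seeing the data. Genes under about 1 FPKM rest on few counts.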
